A study of Drosophila melanogaster with 4 samples.

Results

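The Sm core is the ring of 7 proteins, SmB, SmD1, SmD2, SmD3, SmE, SmF and SmG, that is built around the U1, U2, U4 and U5 small nuclear RNAs to make the core of a spliceosomal small nuclear ribonucleoprotein (snRNP). The genes were taken by name, and all 7 were found among the 14373 genes and other features listed in the files. SmG is listed there as SNRPG. The same short name is also an old synonym of smaug (smg), a translational repressor, which was not used. The samples are whole embryos of Drosophila melanogaster (strain w118), laid 0–1 h or 4–5 h before collection, and each stage has 2 libraries. No transgene, allele or treatment is named for either stage. Total RNA from a centrifuged embryo lysate was used, without a separate step of selection for poly(A) tails. It was read by Nanopore direct RNA sequencing, in which 1 read comes from 1 RNA molecule. Genes annotated as rRNA took 2.2% and 0.74% of the reads at 0–1 h and 5.3% and 3.2% at 4–5 h. Whether tails affected which molecules were read was not tested, so the changes below are changes in reads. The study compared embryos before and after the embryo's own genome is switched on.

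In the cell the ring is not assembled in 1 step. SmD1 pairs with SmD2, SmB pairs with SmD3, and SmE, SmF and SmG form a trimer, and the SMN complex then closes these sub-complexes around the snRNA. A fly egg is supplied by the mother with RNA and protein for the first rapid nuclear divisions, and the early zygotic genes that follow are mostly short, with few introns. Sm proteins have also been tied to the localisation of oskar mRNA and to germ cell formation in the fly.

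The 4 libraries held 573843 and 557424 reads at 0–1 h and 883138 and 429534 at 4–5 h, of which the Sm core took 1603, 1495, 2612 and 1230. Maternal markers (dhd, exu, nanos, osk, gnu and mtrm) held 8068 and 7775 reads at 0–1 h against 116 and 57 at 4–5 h. The 7 zygotic markers held 24 and 36 against 1580 and 836, so the libraries carried the RNA that their stage labels name. Follicle cell and yolk protein markers had 0, 0, 3 and 3 reads, and late muscle and cuticle markers 1, 0, 11 and 19. Cytosolic ribosomal protein genes took 22.6% and 25.5% of the reads at 0–1 h and 48.8% and 48.5% at 4–5 h. With ribosomal protein and rRNA genes left out of the scaling, the log2 change of SmB was 2.10 and that of SmD1 was 0.38, against 2.09 and 0.36 with them.

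All 7 genes are small. SmB (FBgn0262601, chromosome 2L 10425483–10426627, minus strand) has 2 exons and encodes 199 amino acids, the longest protein of the ring. Its partner SmD3 (FBgn0023167, chromosome 2R 12168731–12170003, plus strand) has 2 exons and 151 codons. SmD1 (FBgn0261933, chromosome 3L 12733364–12734611, minus strand) and SmD2 (FBgn0261789, chromosome 3R 6345000–6345911, minus strand) each have 2 exons and encode 124 and 119 amino acids. SmE (FBgn0261790, chromosome 2L 7884930–7885450, minus strand) and SmF (FBgn0000426, chromosome 2R 12183844–12184310, minus strand) have no intron and encode 94 and 88 amino acids. SmG (FBgn0261791, chromosome X 16639810–16640419, minus strand) has 3 exons and encodes 76 amino acids. The spliced mRNAs run from 776 nt for SmB, 778 nt for SmD2, 744 nt for SmD3 and 729 nt for SmD1 down to 521 nt for SmE, 467 nt for SmF, and 483 or 432 nt for the pair of SmG forms. Coordinates are those of the Ensembl annotation of BDGP6.

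The comparison of the stages asks how the 7 mRNAs changed over genome activation, and whether they kept their proportions. With TMM scaling, which sets the bulk of genes to no change, 6 of the 7 Sm core genes rose, SmD1 did not pass and 0 fell (also 0 at an unadjusted p under 0.05 and with DESeq2), whereas with library size only 2 rose and 2 fell. DESeq2, run without the filter on low counts, gave a p-value for 8562 genes and called 15.6% of them higher and 12% lower. Any gene left without an adjusted p counts there as not called. Over all 6042 tested genes 28.6% rose and 31.5% fell (edgeR quasi-likelihood test, Benjamini-Hochberg adjusted p under 0.05 over all tested genes). The median log2 change of the Sm core was 1.15, against −0.10 for all tested genes. All 7 had both 4–5 h libraries above both 0–1 h libraries, as did 37.7% of tested genes. The size of the rise differed among the members, from 4.26-fold for SmB to 1.29-fold for SmD1. The levels below are given as CPM, which is the number of reads per 1e6 reads of a TMM-scaled library. Nothing in the labels ties the replicates to separate egg collections, and the p-values then cover only library-to-library spread, which may be technical. In whole embryos, fewer cells with an RNA and less of it per cell cannot be told apart.

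**Figure D1:**
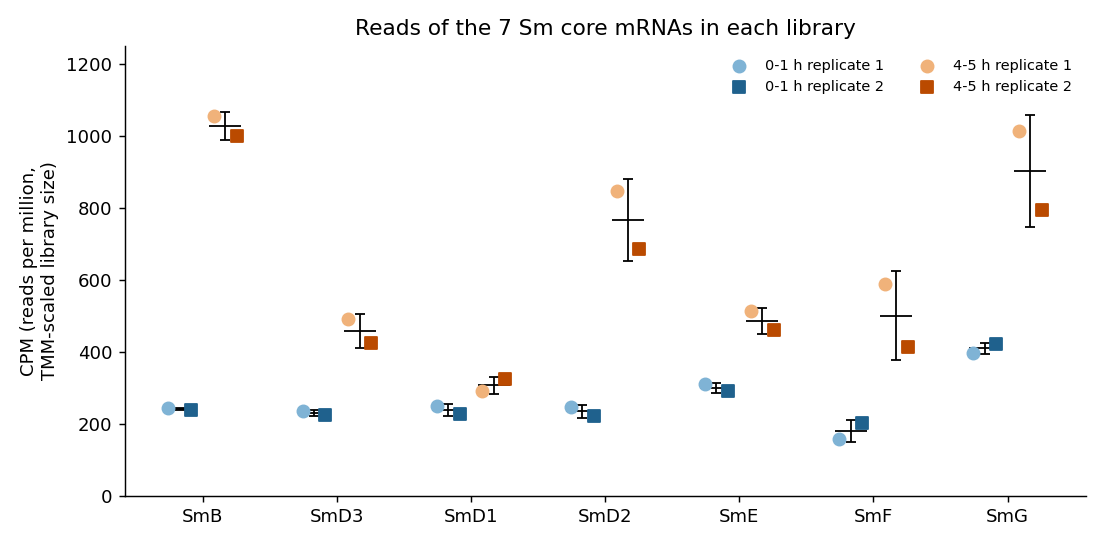
CPM (TMM-scaled library sizes, linear axis from 0) of the 7 Sm core genes in the 4 libraries, with the mean (dash) and SD (bar) of each stage. SmB reached 1055 and 999 at 4–5 h, while SmD1 reached 290.0 and 323.

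SmB and SmD3 are partners. SmB stood at 244 and 239 CPM at 0–1 h and at 1055 and 999 CPM at 4–5 h, a log2 change of 2.09 (SE 0.22, edgeR adjusted p = 4.6e-14). Both 4–5 h libraries were about equally high, and the spread between replicates was small beside the change (241 ± 3.21 and 1027 ± 39.6 CPM, mean ± SD, n = 2 per stage). SmD3 stood at 236 and 224 CPM and rose to 490.1 and 423 CPM, from 230.0 ± 7.87 to 457 ± 47.4, a log2 change of 0.99 (SE 0.22, edgeR adjusted p = 6.4e-05). The stages of SmD3 did not overlap, but its rise was smaller than that of SmB by 1.10 on the log2 scale (95% interval 0.49 to 1.70). SmD3 lies across the opposite strand from Oda, the ornithine decarboxylase antizyme gene, which had 1128 reads over the 4 libraries, and whether strand was used in assigning reads is not given in the sources used here.

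SmD1 and SmD2 are the second pair. SmD2 had 247 and 221 CPM at 0–1 h and 846 and 686 CPM at 4–5 h, from 234 ± 18.6 to 766 ± 113 CPM, a log2 change of 1.71 (SE 0.22, edgeR adjusted p = 7.2e-11). The higher of its late libraries was replicate 1, and the stages lay far apart. SmD1 had 249 and 226 CPM at 0–1 h and 290.0 and 323 CPM at 4–5 h, from 238 ± 16.8 to 307 ± 23.4 CPM. Its log2 change of 0.36 (SE 0.23, edgeR adjusted p = 0.166) has a 95% interval of −0.09 to 0.81, which holds both no change and a rise of up to 0.81. The log2 change of SmD2 exceeded that of SmD1 by 1.35 (95% interval 0.73 to 1.97).

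SmE, SmF and SmG make up the trimer. SmG had 398 and 421 CPM at 0–1 h and 1013 and 793 CPM at 4–5 h, a log2 change of 1.15 (SE 0.21, edgeR adjusted p = 2.8e-06). SmF had 159 and 203 CPM and rose to 587 and 413 CPM, a log2 change of 1.48 (SE 0.23, edgeR adjusted p = 2.9e-08). Its replicates were the least alike of the 7 relative to their mean at both stages, with 181 ± 31.0 and 500.2 ± 123 CPM. SmE, intronless like SmF, had 310.3 and 290.3 CPM and then 512 and 459.8 CPM, a log2 change of 0.70 (SE 0.21, edgeR adjusted p = 0.00355). The call for SmE was lost without 0–1 h replicate 1 (edgeR adjusted p = 0.0573) and without 0–1 h replicate 2 (edgeR adjusted p = 0.085), at log2 changes of 0.71 and 0.63. The intronless members thus lay on either side of the Sm core median.

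These directions are relative to the bulk of genes. With library size as the only scaling, 2 of the 7 rose (SmB and SmD2), 2 fell (SmD1 and SmE) and 3 did not pass, where 10.9% of all tested genes rose and 63.3% fell. SmB then changed by 0.90 and SmD1 by −0.82 on the log2 scale. In the deposited TPM, which divide by length, no member rose and 5 fell, with SmB at 0.14 and SmD2 at −0.25 not passing (limma on log2 TPM + 1), where 5.16% of all tested genes rose and 79.4% fell. With 1 read per molecule, TPM are not a count of molecules, and they also depend on the lengths of all other RNAs read. The mean annotated length per read was 1798 and 1665 nt at 0–1 h and 1266 and 1338 nt at 4–5 h. The median log2 change over all tested genes was −0.10 with TMM, −1.29 with library size only and −1.80 in TPM. Against that median SmB stood 2.19, 2.20 and 1.94 higher, SmE 0.79, 0.80 and 0.54 higher, and SmD1 0.46, 0.47 and 0.22 higher, in that order. The distance also depends on which genes are tested. With no filter on low counts the median of all genes was 0.24 and with DESeq2 it was 0.30, and SmB then stood 1.76 and 1.76 above it, SmE 0.36 and 0.37, and SmD1 0.03 and 0.04. As a share of all reads, the Sm core together was 0.279% and 0.268% at 0–1 h and 0.296% and 0.286% at 4–5 h. Its summed CPM on the TMM scale went from 1833 ± 13.1 to 4446 ± 493, a ratio of 2.43, and the ratio was 1.06 with library size only.

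**Figure D2:**
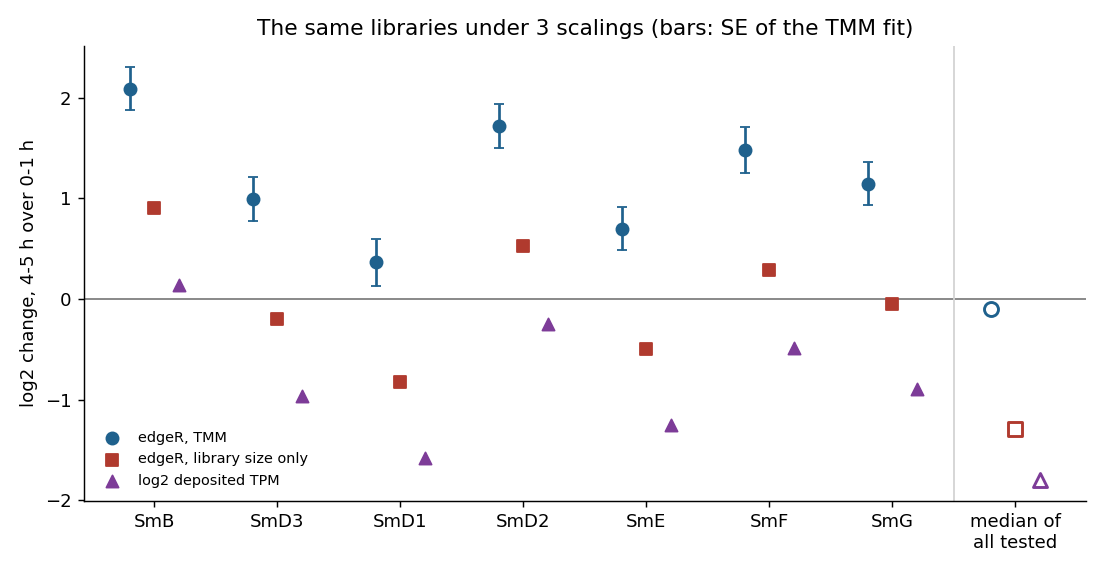
Log2 change from 0–1 h to 4–5 h for each Sm core gene under 3 scalings (filled symbols), with the median of all tested genes under the same scaling (open symbols, right). Bars are the SE of the TMM fit. Each scaling moves the members nearly alike, so they keep their order, from SmB down to SmD1, by construction. The whole set shifts with the median, from −0.10 to −1.29 and −1.80.

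The proportions among the 7 genes do not depend on how libraries are scaled. At 0–1 h SmB, SmD1, SmD2 and SmD3, whose mRNAs are of like length, held close to equal shares of the Sm core reads, between 12.1% and 13.5% in either library. At 4–5 h these 4 spread from 6.05% to 24.4%. SmB took 13.2% and 13.1% of the Sm core reads at 0–1 h and 22.0% and 24.4% at 4–5 h, the largest gain of the 7 in shares of reads, of reads per kb and of TPM. SmD2 gained as well, from 13.4% and 12.1% to 17.6% and 16.7%. SmD1 went from 13.5% and 12.4% to 6.05% and 7.89%, and SmE from 16.8% and 15.9% to 10.7% and 11.2%. Which of these lost more depends on the scale. The mean change was −5.99 points for SmD1 and −5.43 for SmE in shares of reads, −4.64 and −5.74 in shares of reads per kb, and −3.54 and −5.35 in shares of TPM. Without 4–5 h replicate 1 the shares of reads changed by −5.07 and −5.16 points. The exact 95% binomial interval of SmB in the lower late library, 20.4% to 23.7%, lies above that of its higher early library, 11.6% to 15.0%. For SmD1 the interval of the higher late library, 6.44% to 9.54%, lies below that of the lower early library, 10.7% to 14.2%. These intervals cover counting error only.

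The smaller members of the shift were less clear. SmD3 went from 12.8% and 12.3% to 10.2% and 10.3%, SmG from 21.6% and 23.1% to 21.1% and 19.3%, and SmF from 8.61% and 11.1% to 12.3% and 10.1%. Of the 7 shares of reads only that of SmF overlapped between stages. In shares of the summed TPM it was SmG that overlapped, and SmF did not. With 2 libraries per stage an exact two-sided permutation test cannot go below p = 0.333, which is the value for the other 6 members, and for SmF it was p = 0.667. Stages that do not overlap are common on this scale: 87% of all tested genes did not overlap when their reads were divided by the summed Sm core reads. Of the 21 pairs of members, 11 differed in log2 change with a 95% interval that excludes 0, each interval taken from the SEs of the fit with no correction for the number of pairs and with genes treated as independent. SmB rose more than SmG, SmD3, SmE and SmD1 by this measure, and its difference from SmD2 was 0.38 (−0.23 to 0.98). SmD1 lay below every member but SmE by this measure, and from SmE it differed by 0.33 (−0.28 to 0.95). Its difference from SmD3 was at the margin, at 0.63 (0.0078 to 1.25). The intervals use a normal quantile of 1.96, and a slightly wider one would hold 0 for that pair.

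**Figure D3:**
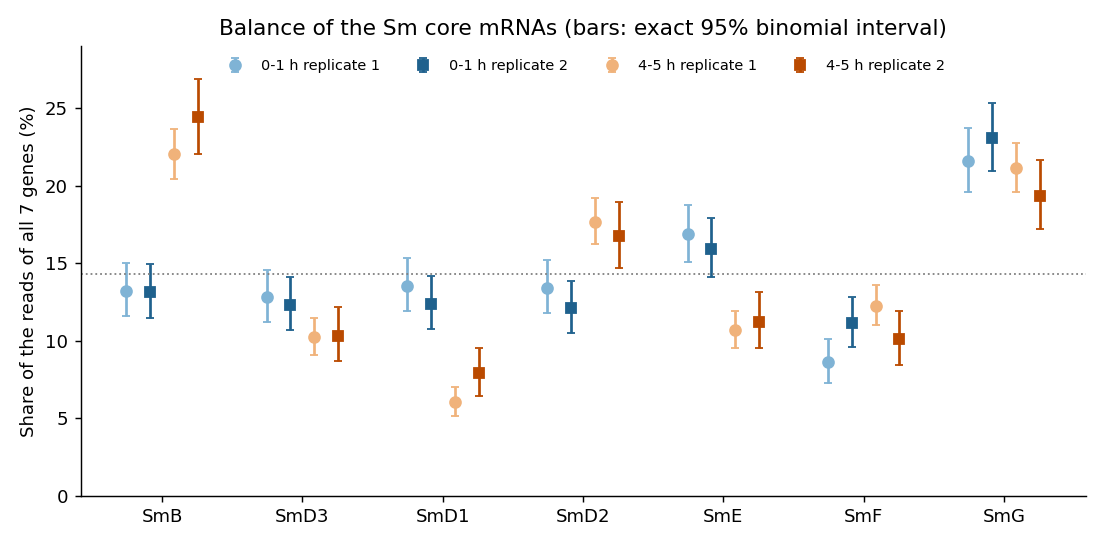
Share of each gene in the reads of all 7 Sm core genes, per library, with exact 95% binomial intervals and a dotted line at an even share of 14.3%. SmB rises from 13.2% and 13.1% to 22.0% and 24.4%, and SmD1 drops to 6.05% and 7.89%.

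Within both pairs the partners started level and ended unequal. Per kb of mRNA, the ratio of SmB to SmD3 was 0.992 and 1.02 at 0–1 h and 2.06 and 2.26 at 4–5 h. The intervals at 0–1 h, 0.814 to 1.21 and 0.831 to 1.26, held 1, and those at 4–5 h, 1.78 to 2.40 and 1.83 to 2.81, did not. The ratio of SmD2 to SmD1 per kb was 0.928 and 0.917 at 0–1 h and 2.73 and 1.99 at 4–5 h, with intervals of 0.765 to 1.13, 0.743 to 1.13, 2.28 to 3.30 and 1.56 to 2.56. In log2 these ratios moved by 1.10 and 1.34, which length does not affect, against SDs between replicates of 0.03 and 0.09 for SmB to SmD3 and of 0.01 and 0.32 for SmD2 to SmD1. The ratios of mean TPM were 0.984 and 2.12 for SmB to SmD3, and 0.895 and 2.25 for SmD2 to SmD1, at 0–1 h and 4–5 h.

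In the trimer the change was of another kind. SmE exceeded SmF per kb at 0–1 h, by ratios of 1.75 and 1.29, and at 4–5 h the ratios were 0.782 and 0.998. SmG exceeded both at each stage, with ratios to SmE of 1.503 and 1.70 and then 2.32 and 2.02, and to SmF of 2.64 and 2.19 and then 1.81 and 2.02. Not divided by length, the reads of SmE to SmF stood at 1.96 and 1.43, and then at 0.872 and 1.11, on either side of 1. For SmG to SmE the ratios of reads were 1.28 and 1.45 and then 1.98 and 1.72. For SmG to SmF they were 2.51 and 2.08 and then 1.725 and 1.92. For each of the 5 pairs of genes the exact two-sided permutation test on the ratio gave p = 0.333, the smallest that 2 libraries per stage allow. Taken by sub-complex, SmB and SmD3 held 26.0% and 25.4% of the Sm core reads at 0–1 h and 32.2% and 34.7% at 4–5 h. SmD1 and SmD2 held 26.9% and 24.5%, then 23.7% and 24.6%, which overlapped. The mean change in share of reads was 4.44 points for SmD2 and −5.99 for SmD1, in opposite directions. The trimer held 47.0% and 50.1%, then 44.1% and 40.7%.

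**Figure D4:**
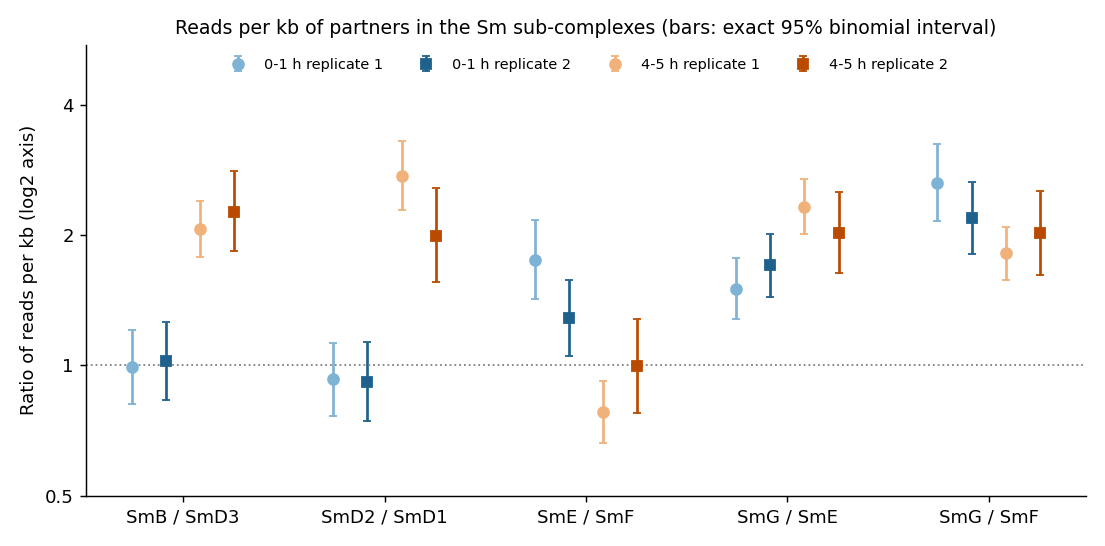
Ratio of reads per kb between partners in the Sm sub-complexes, per library, on a log2 axis, with exact 95% binomial intervals and a dotted line at equal reads per kb. SmB to SmD3 and SmD2 to SmD1 lie near 1 at 0–1 h and between 1.99 and 2.73 at 4–5 h.

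Levels of different genes were ordered in CPM per kb, which places short mRNAs higher than CPM does. At 0–1 h SmD2 (301 ± 23.9), SmD3 (309 ± 10.6), SmB (311 ± 4.13), SmD1 (326 ± 23.0) and SmF (387 ± 66.5) could not be separated from their neighbours in that order, since their libraries overlapped. SmE at 576 ± 27.1 and SmG at 922 ± 37.0 CPM per kb lay above them, each without overlap. At 4–5 h SmD1 was lowest at 421 ± 32.1 CPM per kb and SmD3 next at 614 ± 63.7. SmE (933 ± 71.1), SmD2 (985 ± 145) and SmF (1071 ± 264) overlapped, SmB followed at 1324 ± 51.0, and SmG was highest at 2033 ± 351 CPM per kb. The order in CPM, which counts molecules read without regard to length, was another. There SmF was lowest at 0–1 h, at 181 against 230.0 for SmD3, without overlap. In CPM at 4–5 h SmB was highest at 1027, against 903 for SmG, and their libraries overlapped. The ratio of the highest to the lowest member per kb was 2.85 and 3.34 at 0–1 h and 5.73 and 4.03 at 4–5 h. In TPM it was 4.43 and 5.46, then 8.87 and 5.60. TPM place the short mRNAs higher, because the length by which they divide is 250 nt below the annotated one, which leaves 217 of 467 nt for SmF.

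SmG is the only member with more than 1 annotated transcript. SNRPG-RA and SNRPG-RB have the same coding sequence and the same start, and the 3′ end of RA lies 51 nt further downstream. RA took 28.2% and 6.12% of the SmG reads at 0–1 h and 16.1% and 60.4% at 4–5 h. The replicates of each stage thus differed as widely as the stages, with exact 95% binomial intervals of 23.4% to 33.1% and 3.81% to 9.15% at 0–1 h, and of 13.2% to 19.5% and 54.0% to 66.8% at 4–5 h. The test of transcript usage was not passed (diffSpliceDGE in edgeR, adjusted p = 0.623), and 13.1% of the 823 genes tested for it passed. That count of 108 genes fell to 0 without 0–1 h replicate 1, without 0–1 h replicate 2 and without 4–5 h replicate 2, and to 1 without 4–5 h replicate 1. The reads of the forms are Salmon's division of reads that may fit either, and the summed SmG reads do not depend on it, whereas its TPM does. Its values per kb do as well, through the read-weighted mean length of 444.1 nt.

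The Sm ring has relatives and helpers, listed by function. The LSm proteins form similar rings: LSm8 marks the ring that binds U6 snRNA in the nucleus, and LSm1 the ring that acts in mRNA decay in the cytoplasm. Of 8 LSm genes, 4 are given by the annotation only by a CG identifier, and all 8 were tested. With TMM 5 rose and 0 fell (also 0 at an unadjusted p under 0.05 and with DESeq2), with a median log2 change of 1.20. Over all tested genes 28.6% rose and 31.5% fell. With library size only 2 of the 8 rose and 3 fell, beside 10.9% and 63.3% of all tested genes. CG6610 rose from 118 ± 7.59 to 439 ± 64.7 CPM (log2 change 1.90, SE 0.24), LSm3 from 106 ± 22.9 to 391 ± 91.0 CPM (1.90, SE 0.25) and CG2021 from 101 ± 1.59 to 297 ± 80.9 CPM (1.57, SE 0.25). LSm1 had a log2 change of −0.24 (SE 0.30), LSm7 of 0.34 (SE 0.23) and LSm-4 of −0.55 (SE 0.52), and none of these passed. Lsm10 and Lsm11 replace SmD1 and SmD2 in the U7 snRNP, which processes histone pre-mRNA. Lsm10 had a log2 change of −0.14 (SE 0.36) and did not pass. It was called lower with library size only, as were 63.3% of all tested genes. Lsm11, at 6, 8, 5 and 4 reads, was too rare for the edgeR test.

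Factors that build snRNPs held genes that rose and genes that fell. Of 16 listed genes 13 were tested, 7 rose and 4 fell, with a median of 1.07, and with library size only 1 rose and 5 fell. The 4 that fell are 30.8% of those tested, close to the 31.5% of all tested genes, and the 7 that rose are 53.8%, against 28.6%. DESeq2 gave a p-value for 15 of the listed genes, Snup and coil included. It called 4 higher and 1 lower, or 26.7% and 6.67%, against 15.6% and 12% of all genes in that fit. The count of 4 that fell was 1 without 0–1 h replicate 2 and 2 without 4–5 h replicate 2. vls, which acts with the methyltransferase csul on Sm proteins, rose from 37.2 ± 2.61 to 160.1 ± 33.2 CPM (log2 change 2.12, SE 0.29, edgeR adjusted p = 1.4e-09). Ars2, a partner of the cap-binding complex, rose from 73.3 ± 5.28 to 243 ± 29.1 CPM (1.71, SE 0.26, edgeR adjusted p = 1.5e-08). Smn, the core of the assembly complex, had 106 and 116 reads at 0–1 h and 207 and 66 at 4–5 h (log2 change 1.21, SE 0.25), and csul rose by 1.07 (SE 0.29). In the other direction rig, the fly counterpart of Gemin5 in the SMN complex, fell from 88.7 ± 2.95 to 16.8 ± 4.85 CPM, with 79 and 71 reads against 11 and 4 (log2 change −2.32, SE 0.38, edgeR adjusted p = 1.7e-07). Phax, the adaptor for snRNA export, changed by −1.15 (SE 0.38), Glos by −1.35 (SE 0.43), and icln, which holds Sm proteins before assembly, by −0.78 (SE 0.33), and all 3 passed the test. Not tested with edgeR for want of reads were Snup, coil and Gem4b.

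Proteins particular to single snRNPs made up the last lists. Of the 14 U1 and U2 genes 13 rose and 0 fell (median 1.52, also 0 lower at an unadjusted p under 0.05 and with DESeq2). DESeq2 called 11 of them higher, and with library size only 3 rose. In log2 TPM + 1 (limma) 1 of them rose and 5 fell. Sf3b6, Sf3b5 and Phf5a, small subunits of the SF3b complex of the U2 snRNP, rose by 2.60 (SE 0.23), 1.73 (SE 0.23) and 1.54 (SE 0.22) on the log2 scale. Of the 14 U4/U6 and U5 genes 9 rose and 0 fell (median 0.95, also 0 lower at an unadjusted p under 0.05 and with DESeq2), against 1 higher and 4 lower with library size only. The 9 were 4 without 0–1 h replicate 2 and with DESeq2. Among them were Dim1 at 1.96 (SE 0.27), Prp31 at 1.73 (SE 0.30) and CG4849, the Snu114 GTPase, at 1.54 (SE 0.30). hoip, which binds U4 snRNA and box C/D snoRNAs, stood at 643 ± 82.4 and 631 ± 26.0 CPM, and its log2 change of −0.03 (SE 0.21) did not pass. Together 34 of the 50 tested genes of these 5 lists rose and 4 fell, beside 28.6% and 31.5% of all tested genes. With library size only 7 rose and 13 fell, beside 10.9% and 63.3%. In log2 TPM + 1 (limma) 1 of the 50 rose and 27 fell, beside 5.16% and 79.4%. Of the cytosolic ribosomal protein genes 81 were tested, and 81 were called higher with TMM (median 2.23), 78 with library size only and 36 in TPM.

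**Figure D5:**
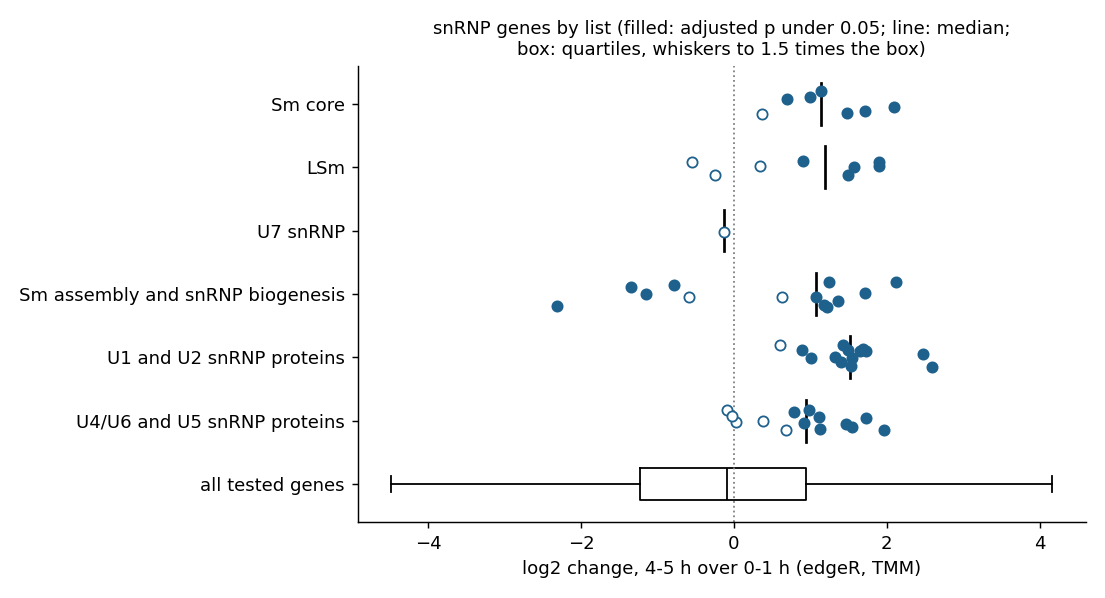
Log2 change from 0–1 h to 4–5 h (edgeR, TMM) of each tested gene in 6 snRNP lists, filled where adjusted p is under 0.05, with the list median as a line and a box for all 6042 tested genes. The Sm core median is 1.15. Only the assembly and biogenesis list holds genes that fell, with rig at −2.32 the lowest, where 31.5% of all tested genes fell. With library size only, 63.3% of all tested genes were called lower. In that fit 2 genes of the Sm core, 3 of the LSm list and 1 of the U7 list were called lower. So were 5 of the assembly list and 4 of the U4/U6 and U5 list.

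A mean of 100 reads or more was reached by 730 genes, and among these 5 outside the Sm core lay closest to its mean profile over the 4 libraries, by the root mean square difference of centred log2 CPM. They were eff, a ubiquitin-conjugating enzyme gene (0.04), CG1910 (0.05), Ran, the GTPase of nuclear transport (0.05), Galphai, a G protein subunit gene (0.06), and Clc, the clathrin light chain gene (0.06). SmG itself differed from the mean profile by 0.07, SmD3 by 0.11, SmF by 0.21, SmD2 and SmE by 0.26 each, and SmD1 and SmB by 0.44 each. A profile of 4 libraries at 2 stages holds little more than the stage change, so that likeness here is a description.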

How the data were processed

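Nanopore direct RNA reads of 4 libraries were assigned to annotated transcripts by the authors. The submitters' processing notes name minimap2, Salmon and the build BDGP6, while the sources used here do not give their versions or settings. Their deposited values are Salmon's expected counts per transcript, without normalization. For each gene these were added up, then rounded. The authors' TPM come from the same reads and an effective length, per the file headers. Of 30652 listed transcripts 30280 were matched by identifier to Ensembl release 115 of BDGP6 and belong to 14001 genes. The other 372 kept their own names.

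Stage differences were fitted in R 4.3.3 with edgeR 4.0.16 (TMM, filterByExpr with min.count 10, robust quasi-likelihood F test, stage as the only term). The 0–1 h and 4–5 h stages were compared with 2 libraries each. Transcript usage was tested with diffSpliceDGE. Limma 3.58.1 and DESeq2 1.42.0 served as alternatives, as did RLE, library size only, TMM without ribosomal protein and rRNA genes, other filters, thinning to 429525 reads, a replicate block, and leaving out each library. Shares carry exact Clopper-Pearson intervals and an exact permutation test (scipy 1.17.1). The fits were tested on simulated data in which most genes were unchanged, so that test does not bear on the choice of scaling. Pairwise 95% intervals between members were added after the values were seen. Depth ran from 429534 to 883138 reads per library, and the member with the fewest reads in a library had 97 (SmD1).

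Named are the 7 members, the 3 genes of each list with the smallest p, and the 5 genes most like the Sm core. Other genes (LSm1, LSm7, LSm-4, Smn, csul, Phax, Glos, icln, hoip, Lsm11 and the untested ones) were named after their values were seen. The members and lists were chosen with earlier results of these data known.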

Additional observations from a re-analysis of the deposited data

How the results depend on the processing

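The 6 rises of Sm core genes were called with RLE, TMM without ribosomal protein and rRNA genes, no filter, the stricter filter, thinning and DESeq2 as well, and SmD1 was called in none of these. With library size only, the log2 changes were −0.82 for SmD1, −0.20 for SmD3, −0.49 for SmE and −0.0463 for SmG, all with the sign turned, and SmF at 0.29 no longer passed. In that fit 2 Sm core genes were called higher and 2 lower, 656 of all genes higher and 3823 lower, and of the 5 other snRNP lists 7 higher and 13 lower, and the log2 fold of the summed Sm core level was 0.0884 against 1.28 with TMM. In log2 TPM with a pseudocount of 1 the values were 0.14 for SmB, which no longer passed, −1.58 for SmD1, −0.25 for SmD2, −0.96 for SmD3, −1.26 for SmE, −0.49 for SmF and −0.89 for SmG. With a pseudocount of 0.1 they were 0.14, −1.58, −0.25, −0.96, −1.26, −0.49 and −0.89. In TPM 0 Sm core genes were called higher and 5 lower with either pseudocount (limma; 0 were higher at an unadjusted p under 0.05), and of all genes 312 and 293 were higher and 4798 and 4674 lower. Of the 5 other snRNP lists 1 and 1 were higher and 27 and 25 lower, and the summed TPM changed by −0.765 in log2.

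The stricter filter, which tests fewer genes, called 799 genes higher and 936 lower and 20 of the 5 other snRNP lists higher. DESeq2 called 1026 of all genes lower and 1 of the 5 lists lower. When each library was left out in turn, the log2 changes ran from 2.05 to 2.13 for SmB, 0.28 to 0.45 for SmD1, 1.55 to 1.86 for SmD2, 0.88 to 1.09 for SmD3, 0.62 to 0.77 for SmE, 1.20 to 1.71 for SmF and 0.96 to 1.31 for SmG, 5 to 6 Sm core genes were called higher, and 1 to 3 genes of the 5 lists lower, fewest without 0–1 h replicate 2. A stage with a lone library is then assumed to vary like the other stage. The change in share ran from 8.85 to 11.2 percentage points for SmB and from −6.91 to −5.07 for SmD1, while SmF ran from 0.0626 to 2.56 and SmG from −2.98 to −1.20, and no share changed sign per kb or in TPM.

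The labels do not say that replicate numbers pair the samples, and the deviations of same-numbered libraries from their stage means correlated at −0.16. With the replicate block the log2 change was 2.09 for SmB and 0.36 for SmD1, and 6 Sm core genes were called higher, with 1568 of all genes higher and 1696 lower, while genes called for transcript usage went from 108 to 0.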

Other observations

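SmE shares part of its locus with CG7102 on the same strand, which had 46 reads over the 4 libraries, and SmF overlaps CG13175 and CG33964 on the opposite strand, with 22 reads each. SmD2 overlaps CG17919 on the opposite strand, which had 0 reads in all libraries. SmB, SmD1 and SmG overlap no annotated gene. SmD3 and SmF lie 13840 bp apart on chromosome 2R with 11 annotated genes between them, and their log2 changes were 0.99 and 1.48, a difference of 0.49 in favour of SmF (95% interval −0.13 to 1.11).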
